A study of Saccharomyces cerevisiae with 4 samples.

Results

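The genes described here encode the machinery that writes and reads N6-methyladenosine (m6A), a methyl mark on adenosines of mRNA, in meiotic cells of budding yeast. They were chosen by name: IME4, MUM2, SLZ1 and KAR4 of the methyltransferase complex, called writers below, and PHO92, the reader. All 5 were found in both deposited tables, which hold 6682 and 6664 rows, and all 5 were among the 5768 nuclear genes tested. The samples were SK1 yeast, a strain background that sporulates efficiently, collected after 4 h at 30 °C in sporulation medium with potassium acetate as carbon source. The ndt80pch2 cells lacked NDT80 and PCH2, and the ndt80 cells lacked NDT80 alone, with 2 mRNA libraries of each. NDT80, the transcription factor that takes cells out of meiotic prophase, was therefore deleted in both strains, and only PCH2, an ATPase that acts on chromosome axis proteins and in the meiotic checkpoint, differed by design. The ndt80pch2 samples were placed in their group by their titles, since another label names only the NDT80 deletion for every sample. The labels do not say whether the libraries of a strain came from separate cultures, so p-values measure the spread between these libraries, which may be technical.

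As background, m6A is laid down on yeast mRNA during meiosis by a complex built on a pair of related proteins, Ime4 and Kar4, of which Ime4 is the catalytic subunit. Mum2, Slz1 and Vir1 are further subunits, and the complex has counterparts in human cells: METTL3 for Ime4, METTL14 for Kar4, WTAP for Mum2, ZC3H13 for Slz1 and VIRMA for Vir1. Methylated transcripts are bound by Pho92, which carries a YTH domain, the fold that recognises m6A. RefSeq notes IME1, IME2 and IME4 among the mRNAs that Ime4 methylates, and notes that IME4 is dispensable for meiosis in SK1. Mum2 is also known to bind Orc2 and to be needed for meiotic DNA replication, and Kar4 acts with Ste12 as a transcription factor in mating.

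Each of the 5 genes is a single uninterrupted coding sequence in the RefSeq R64 annotation of the S288C genome, the build whose coordinates the deposited tables use. SLZ1 (YNL196C) lies at chrXIV:270275-271171 on the minus strand, MUM2 (YBR057C) at chrII:352193-353293 on the minus strand, and KAR4 (YCL055W) at chrIII:27929-28936 on the plus strand. IME4 (YGL192W) lies at chrVII:142246-144048 on the plus strand and PHO92 (YDR374C) at chrIV:1223474-1224394 on the minus strand. The 300 bases before each start codon were searched for GGCGGC on both strands (GCCGCC on the other), the core of the URS1 element through which Ume6 acts on early meiotic genes. The letters occurred once each in the windows of SLZ1, IME4, PHO92 and VIR1, and in neither the MUM2 nor the KAR4 window. Of 6663 such windows in the genome, 349 (5.24%) held them. A match describes the letters and is not a shown binding site. The 60 bases around each match show the letters in their context; each reads 5′ to 3′ on the strand of its gene, with the match in capitals.
SLZ1: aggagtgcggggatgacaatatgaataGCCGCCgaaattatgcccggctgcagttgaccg
IME4: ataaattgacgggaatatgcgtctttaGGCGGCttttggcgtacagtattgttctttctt
PHO92: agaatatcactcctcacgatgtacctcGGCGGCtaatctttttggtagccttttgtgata
VIR1: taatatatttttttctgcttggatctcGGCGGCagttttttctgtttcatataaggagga
The SLZ1 stretch is chrXIV:271274-271333, with the match starting 135 bases before the start codon. The IME4 stretch is chrVII:141987-142046, with the match 232 bases before the start codon and inside YGL193C, an annotated reading frame on the opposite strand. The PHO92 stretch is chrIV:1224591-1224650, with the match 229 bases before the start codon, and the VIR1 stretch is chrVII:428463-428522, with the match 111 bases before it.

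The authors deposited 1 averaged value per gene and strain, on a scale that behaves like TPM (reads per coding length, scaled to a fixed total). Whole reads of each library could be recovered from these averages, and libraries C and D below are of ndt80pch2 and A and B of ndt80. The letters are not tied to the replicate numbers of the labels. Nuclear genes held 1653966 reads in C and 1653209 in D, against 2096534 in A and 2302378 in B. PCH2 had 0 and 0 reads in the ndt80pch2 libraries, with 3 reads equal to 1.26 and 1.29 TPM there, against 710 and 776 reads in the ndt80 libraries. NDT80 had 0 reads in all 4 libraries. The level of a transcript in these samples is an average over all cells, so fewer cells of a type and less RNA per cell cannot be told apart.

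The transcripts of all 5 members were well above the level of the median gene in both strains, and they spanned about the same range in each. Their levels lay between 150.4 and 773 TPM in ndt80pch2 libraries and between 148 and 718 TPM in ndt80 libraries, where the median nuclear gene had 40.4 TPM in ndt80pch2 and 46.4 TPM in ndt80. No member had fewer than 314 reads in a library, so counting error alone (1 SD of the reads) was 2.87% to 5.64% of a value.

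**Figure D1:**
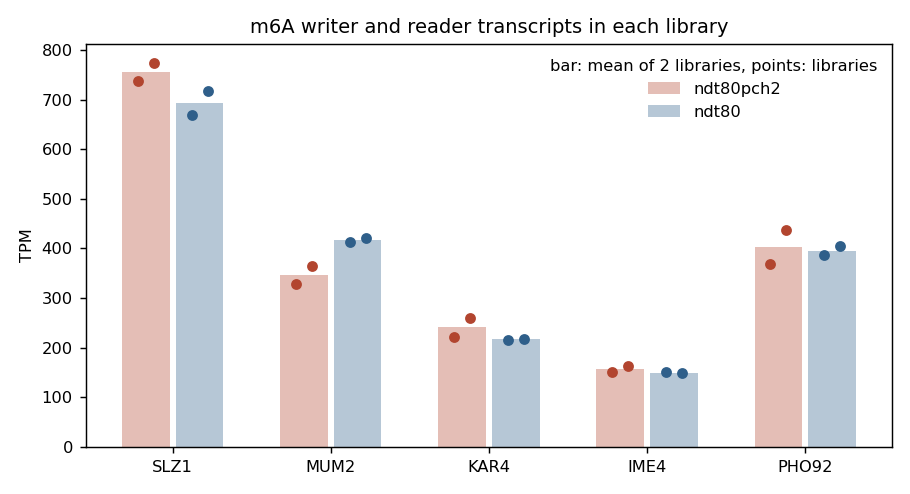
Level in TPM of the 5 m6A genes, with ndt80pch2 left of ndt80; bars are the mean of 2 libraries, drawn from 0, and points are the libraries. SLZ1 is highest and IME4 lowest in all 4 libraries, and the ndt80pch2 points of MUM2 lie below its ndt80 points.

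SLZ1, a leucine zipper protein made specifically in sporulating cells, was the most abundant writer transcript in every library. It had 738 and 773 TPM in C and D, from 927 and 949 reads, against 669 and 718 TPM in A and B, from 1032 and 1212 reads. Its mean was 755 ± 25.3 TPM in ndt80pch2 and 694 ± 34.8 TPM in ndt80 (SD, n = 2 libraries each), which ranked it 163rd from the top of the nuclear genes in ndt80pch2 and 183rd in ndt80. Both ndt80pch2 libraries stood above both ndt80 libraries. The fold changes below are differences in log2(TPM + 1), ndt80pch2 minus ndt80, from each of which the median over all tested genes, -0.15, was subtracted. SLZ1 was at 0.27 on this scale (95% interval 0.05 to 0.49, not adjusted for multiple tests), or 1.21-fold, and its adjusted p was 0.490 by limma-trend. The intervals were shifted by the same median, whereas the limma p-values, here and below, test the difference before it was subtracted. For SLZ1 that difference was 0.12, with an unadjusted p of 0.218 by limma-trend.

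MUM2, the WTAP counterpart, had 328 and 365 TPM in C and D, from 506 and 550 reads, against 414 and 420.5 TPM in A and B, from 783 and 871 reads. The mean was 347 ± 26.3 TPM in ndt80pch2 and 417 ± 4.93 TPM in ndt80 (SD, n = 2 each). It was the only member whose 2 ndt80pch2 libraries both lay below the 2 ndt80 libraries, and its rank from the top was 437th in ndt80pch2 and 354th in ndt80. Relative to all genes its log2 fold change was -0.12 (95% interval -0.35 to 0.10), and before the median was subtracted it was -0.27. The limma-trend p was 0.0262 before adjustment and 0.289 after adjustment over all tested genes, so MUM2 did not pass.

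KAR4, the METTL14 counterpart and the only member with a known role in mating, had 222 and 260.3 TPM in C and D, against 216 and 218 TPM in A and B. The reads behind these levels were 314 and 359 in ndt80pch2 and 375 and 414 in ndt80. Its mean was 241 ± 26.9 TPM in ndt80pch2 and 217 ± 1.41 TPM in ndt80 (SD, n = 2 each). The ndt80pch2 libraries did not overlap the ndt80 libraries, but C lay closer to B than to D. The relative log2 fold change was 0.29 (95% interval 0.04 to 0.55), with an adjusted p of 0.485 by limma-trend. Before the median was subtracted it was 0.15, with an unadjusted p of 0.213 by limma-trend.

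IME4, the catalytic subunit, was the least abundant of the 5. It had 150.4 and 163 TPM in C and D, from 380 and 403 reads, against 152 and 148 TPM in A and B, from 470 and 502 reads, and the strains overlapped. The mean was 157 ± 9.17 TPM in ndt80pch2 and 149.8 ± 2.53 TPM in ndt80 (SD, n = 2 each). Its relative log2 fold change was 0.21 (95% interval -0.02 to 0.44), with an adjusted p of 0.731 by limma-trend. In haploid cells IME4 is known to be repressed by an antisense RNA. The sources used here do not state whether reads were counted by strand, so sense and antisense reads of IME4 cannot be told apart in these values.

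PHO92, the reader, had 369 and 437 TPM in C and D, from 476 and 551 reads, against 387 and 405 TPM in A and B, from 613 and 701 reads. Its mean was 403 ± 48.4 TPM in ndt80pch2 and 396 ± 12.4 TPM in ndt80 (SD, n = 2 each), and both ndt80 libraries fell between the 2 ndt80pch2 libraries. The relative log2 fold change was 0.17 (95% interval -0.09 to 0.43), with an adjusted p of 0.929 by limma-trend.

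Of the 5 members, 0 were called at an adjusted p under 0.05 by limma-trend, where the background was 0.0173% of all tested genes, a single gene, PCH2. At an unadjusted p under 0.05, 1 of 5 passed (MUM2, lower), against 15.8% of all tested genes in either direction, 13.1% that were lower and 2.7% that were higher. These p-values test the difference before the median over all genes was subtracted. The limma-voom test on the recovered reads called 0 of 5 members and 0.451% of all tested genes. Before scaling, 2 of 5 members had both ndt80pch2 libraries above both ndt80 libraries, against 9.4% of all tested genes, and 1 of 5 had them below, against 42.4%, or 51.8% of tested genes on either side. After scaling the libraries by the median of gene-wise ratios, SLZ1, KAR4, IME4 and PHO92 were each higher in both ndt80pch2 libraries and MUM2 was still lower in both. PHO92 was all but tied, at 385 scaled TPM in C and 384 in B, a gap within counting error. The nearest MUM2 values, 386 scaled TPM in D and 392 in A, were also within counting error of each other. The background after that scaling was 22.3% of tested genes above and 21.6% below. On the scaled values, the limma-trend adjusted p was 0.672 for MUM2, the largest of the 5. It was 0.431 for SLZ1, 0.456 for KAR4, 0.501 for IME4 and 0.625 for PHO92. The median relative log2 fold change over the 5 members was 0.21. Single tested genes lay between -0.16 and 0.16 in their middle 50%, from the 25th to the 75th percentile. Of the lists described below, the meiotic prophase markers also had a median of 0.21, and IME1, IME2 and RME1 had 0.26. When a library was left out, the median ran from 0.14 to 0.30 for the members and from 0.053 to 0.38 for the prophase markers. For IME1, IME2 and RME1 it ran from -0.043 to 0.39. The medians of the other pathway and marker lists ran from -0.43 to 0.10. With 2 libraries against 2, an exact permutation test of a single gene cannot give a two-sided p under 0.333. The intervals above, all from the limma fit, show what the data leave possible: the farthest bounds of any member were -0.35 for MUM2 and 0.55 for KAR4.

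**Figure D2:**
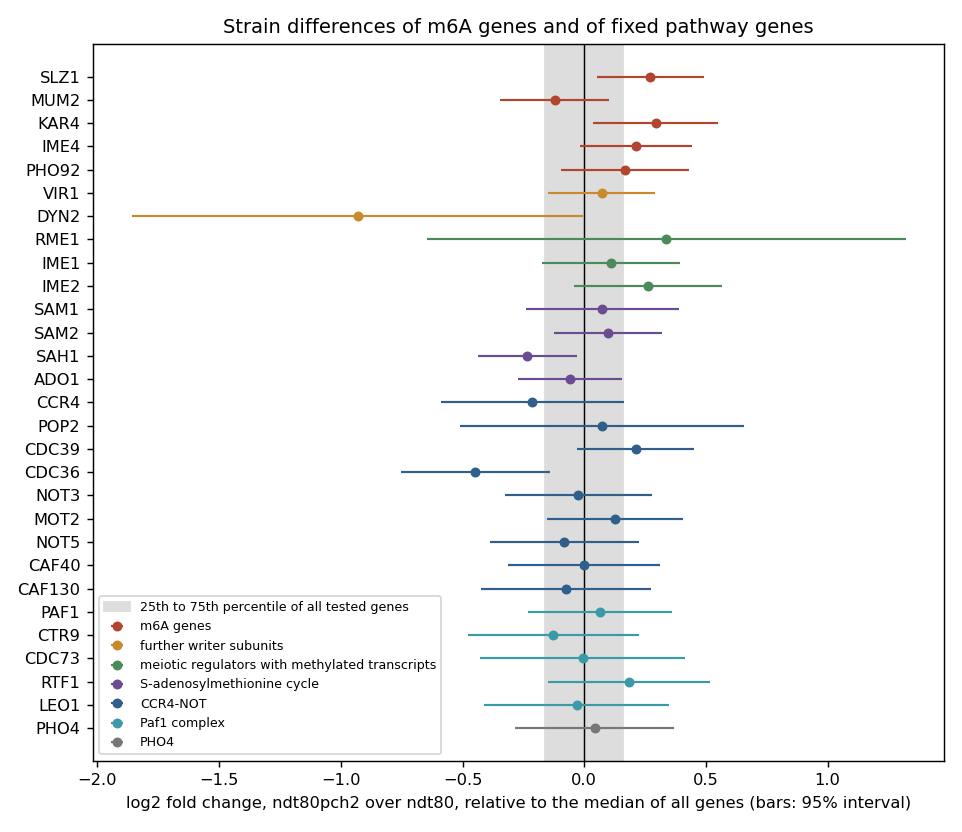
Log2 fold change of ndt80pch2 over ndt80, relative to the median of all tested genes, for the members and the genes of the pathway lists; points are estimates and bars 95% intervals from limma-trend. SLZ1 and KAR4 have intervals above 0, not adjusted for multiple tests. MUM2 is the only member below 0, and the bars of RME1 and DYN2 are the widest. Points and bars are shifted by the median, and the p-values in the text test the difference without that shift.

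The order of the members was nearly the same in every library. In C and D it ran SLZ1, PHO92, MUM2, KAR4, IME4 from high to low, and in A and B it ran SLZ1, MUM2, PHO92, KAR4, IME4. Within ndt80pch2, the 2 libraries of each gene stood clear of those of the next, though PHO92 in C, at 369 TPM, and MUM2 in D, at 365 TPM, nearly met. Within ndt80 the same held, but MUM2 and PHO92 were close, at 414 and 420.5 TPM for MUM2 and 387 and 405 TPM for PHO92. The place of MUM2 relative to PHO92 was thus the 1 point at which the observed order differed between strains. In library B, with counting errors of 3.39% for MUM2 and 3.78% for PHO92, their order was not clearly resolved.

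Ratios between members within a library do not depend on how the libraries are scaled. The ratio of MUM2 to SLZ1 was 0.445 and 0.472 in C and D, against 0.618 and 0.586 in A and B. The ratio of MUM2 to PHO92 was 0.889 and 0.835 in C and D, against 1.07 and 1.04 in A and B. Against IME4, the ratio of MUM2 was 2.18 and 2.23 in C and D, and 2.73 and 2.84 in A and B, and against KAR4 it was 1.48 and 1.40 in C and D, and 1.91 and 1.93 in A and B. In all 4 pairs that hold MUM2, the strains did not overlap and the share of MUM2 was lower in ndt80pch2. Of the 10 possible pairs among the members, 6 had ratios that did not overlap between strains. Among these, KAR4 to IME4 was all but tied, at 1.478 in C and 1.475 in B, a gap within counting error. The share over all pairs of genes was not counted. Over the whole table, the ratio of a gene to MUM2 was higher without overlap in ndt80pch2 for 36.9% of genes and lower for 8.79%, so a higher ratio to MUM2 was common in these libraries.

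**Figure D3:**
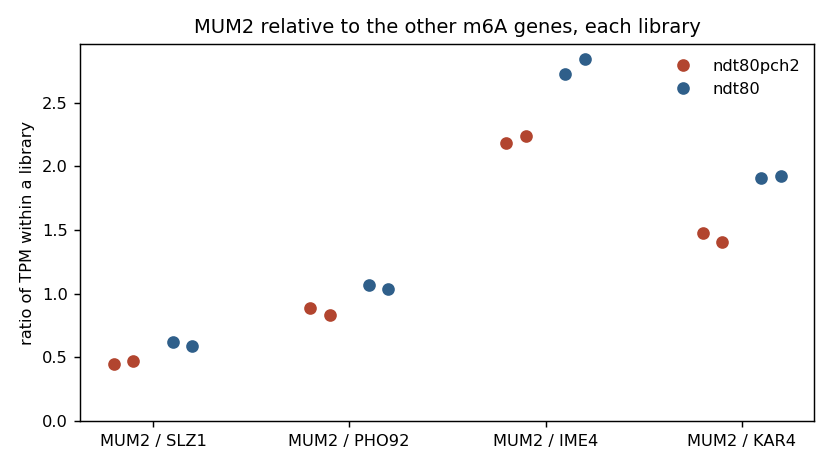
Ratio of MUM2 to each other member in every library, ndt80pch2 left of ndt80; a ratio of TPM values has no unit. Both ndt80pch2 points lie below both ndt80 points in each of the 4 pairs, for example 0.445 and 0.472 against 0.618 and 0.586 for SLZ1.

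Other subunits of the writer complex were read from the same fit. VIR1 (YGL036W, named from RefSeq), the large scaffold subunit, had 251 and 274 TPM in C and D, against 273 and 280.2 TPM in A and B, and the strains overlapped. Its relative log2 fold change was 0.07 (95% interval -0.15 to 0.29) and its adjusted p 0.674 by limma-trend; before the median was subtracted the sign was negative. DYN2, the dynein light chain that also occurs in other complexes, was scarce, with 12 and 5 reads in C and D, against 24 and 20 reads in A and B. Its relative log2 fold change was -0.93 (95% interval -1.86 to -0.0041), with an adjusted p of 0.291 by limma-trend, and it was -0.37 without library D and -1.51 without library C. The writer subunits thus differed in abundance by far more than any of them differed between strains, with DYN2 at 13.1 to 50.02 TPM and SLZ1 at 669 to 773 TPM over the 4 libraries.

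Transcripts known to carry m6A in yeast meiosis were present at high and low levels. IME1, the master activator of meiotic entry, had 499 and 601 TPM in C and D, against 539 and 587 TPM in A and B. IME2, the kinase that follows IME1, had 951 and 1131 TPM in C and D, against 892 and 1027 TPM in A and B. RME1, the repressor of IME1, was low, at 14.2 and 35.6 TPM in C and D, against 20.6 and 18.8 TPM in A and B. The strains overlapped for all 3, and 0 of 3 passed by limma-trend, with 0 of 3 under an unadjusted p of 0.05 and 0 of 3 by limma-voom.

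The methyl donor of the reaction is S-adenosylmethionine. Its synthetases SAM1 and SAM2 overlapped between strains. SAM1 had 181 and 148 TPM in C and D, against 184 and 161 TPM in A and B, and SAM2 had 464 and 458 TPM in C and D, against 501 and 453 TPM in A and B. SAH1, which removes the inhibitory by-product S-adenosylhomocysteine, had 341 and 334 TPM in C and D, against 431 and 448 TPM in A and B. Both ndt80pch2 libraries were below both ndt80 libraries, with a relative log2 fold change of -0.23 (95% interval -0.44 to -0.03) and an adjusted p of 0.254 by limma-trend. ADO1, the adenosine kinase that acts on the product of Sah1, was also lower in both libraries, at 157 to 160 TPM in ndt80pch2, against 180 to 186 TPM in ndt80, with a relative log2 fold change of -0.06. Of all tested genes, 42.4% were lower without overlap in the same way. Of the 4 genes, 0 passed by limma-trend or limma-voom. By limma-trend 1, SAH1, had an unadjusted p under 0.05, against 15.8% of all tested genes.

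Pho92 is known to work with the CCR4-NOT deadenylase in mRNA decay and to associate with the Paf1 transcription elongation complex. Of the 9 CCR4-NOT genes, 0 were called by either limma-trend or limma-voom, 1 had an unadjusted p under 0.05, and the median relative log2 fold change was -0.02. That gene was CDC36, a NOT-module subunit, at 80.5 and 72.3 TPM in C and D, against 125 and 107 TPM in A and B, with a relative log2 fold change of -0.45 (95% interval -0.75 to -0.14) and an adjusted p of 0.254 by limma-trend. CDC39, the scaffold of CCR4-NOT, was the highest of the list in relative log2 fold change at 0.21, and its libraries overlapped. Of the 5 Paf1 complex genes, 0 were called by either test and 0 had an unadjusted p under 0.05, and their relative log2 fold changes ran from -0.13 for CTR9 to 0.18 for RTF1. PHO4, a transcription factor of the phosphate response whose mRNA Pho92 is known to destabilise, had 142 and 120 TPM in C and D, against 154 and 128 TPM in A and B, with a relative log2 fold change of 0.04. Over all 24 genes of these lists, 3 (DYN2, SAH1 and CDC36, all lower) had an unadjusted p under 0.05 by limma-trend. The background was 15.8% of all tested genes, with 13.1% lower. Adjusted p-values by limma-trend over the 24 genes ran from 0.254 to 0.937. These p-values test the difference before the median was subtracted. After scaling by the median of gene-wise ratios, the limma-trend adjusted p was 0.478 for DYN2, 0.443 for SAH1 and 0.338 for CDC36.

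**Figure D4:**
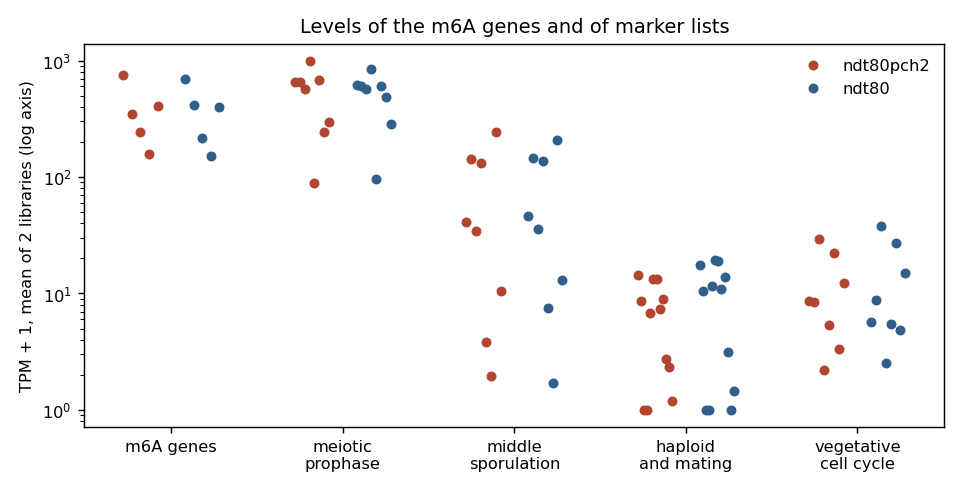
Level (TPM + 1, log axis) of the m6A genes beside marker genes of meiotic prophase, middle sporulation, haploid or mating cells, and the vegetative cell cycle; each point is the mean of 2 libraries, ndt80pch2 left of ndt80. The m6A genes lie within the range of the meiotic prophase markers and above every haploid marker.

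Markers of the labelled cells were checked against the same libraries. The 8 meiotic prophase markers, which include the axis genes HOP1 and RED1, the synapsis gene ZIP1 and the cohesin gene REC8, lay between 84.7 and 1051 TPM in ndt80pch2 and between 89.4 and 859 TPM in ndt80. By limma-trend 0 of 8 were called, against 0.0173% of all tested genes. By limma-voom 1 of 8 was called, against 0.451% of all tested genes. It was the strand exchange gene DMC1, lower with an adjusted p of 0.000612 by limma-voom and 0.0704 by limma-trend. DMC1 had 231 and 252 TPM in C and D, against 476 and 491 TPM in A and B. Its relative log2 fold change was -0.85, while the other 7 prophase markers were above 0 on that scale. The 8 middle sporulation markers, most of which are known to need Ndt80 for full expression, lay between 0.624 and 255 TPM in ndt80pch2 and between 0.509 and 207 TPM in ndt80. SPS2 was the highest of them, at 233 and 255 TPM in C and D, against 203 and 207 TPM in A and B, while CLB1 had 2.52 and 3.10 TPM in C and D, against 6.57 and 6.38 TPM in A and B. By limma-trend and limma-voom, 0 of the 7 tested were called. By limma-trend 1 had an unadjusted p under 0.05, against 15.8% of all tested genes. Haploid and mating markers reached at most 14.0 TPM in ndt80pch2 and 20.1 TPM in ndt80, and the a-factor genes MFA1 and MFA2 had 0 reads in all 4 libraries. Their coding sequences are only 111 and 117 bases long, and whether these libraries can detect such short genes was not tested. The summed level of the 12 haploid and mating markers, before scaling, was 68.3 to 70.0 TPM in ndt80pch2, against 97.2 to 100.3 TPM in ndt80. Of the 8 tested, 0 were called by either test. Both ndt80pch2 libraries lay below both ndt80 libraries for 6 of these 8, against 42.4% of all tested genes. All 8 had a relative log2 fold change below 0, against 2884 of the 5768 tested genes. KAR4, which shares the mating role, was not lower in ndt80pch2, and the part of haploid or mating cells in the KAR4 value was not tested. Vegetative cell cycle markers reached at most 31.4 TPM in ndt80pch2 and 45.7 TPM in ndt80.

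Genes next to the members were read for signs of shared reads. No row of the tables overlapped a member. YGL193C, which starts 18 bases upstream of IME4 on the opposite strand, had 1 and 2 reads in C and D, against 1 and 4 in A and B. YNL195C, 351 bases upstream of SLZ1 on the same strand, was far more abundant, at 3384 and 4021 TPM in C and D, against 3051 and 3044 TPM in A and B, with a relative log2 fold change of 0.42 and an adjusted p of 0.336 by limma-trend. MUM2 and its upstream neighbour UBP14, a ubiquitin protease, were both lower in the ndt80pch2 libraries; UBP14 had 128 and 142 TPM in C and D, against 160.4 and 157 TPM in A and B. Beside KAR4, PEX34 had 24.6 and 18.5 TPM in C and D, against 34.8 and 40.3 TPM in A and B, the opposite side from KAR4. WHI3 downstream of SLZ1, SPB1 downstream of KAR4 and COX13 downstream of IME4 were also lower in both ndt80pch2 libraries. FRQ1 and WIP1 beside PHO92 overlapped between strains. Of all tested genes, 42.4% were lower without overlap in ndt80pch2 and 9.4% were higher. By limma-trend, the adjusted p of each neighbour was between 0.283 and 0.929.

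The genes most alike to each member were taken as the 2 with the smallest Euclidean distance in log2(TPM + 1), centred on the gene's own mean, over the 4 libraries, among 5182 genes. SYF1 (0.0088) and AFI1 (0.0233) were closest to MUM2, and NFS1 (0.0152) and ALD2 (0.0159) to SLZ1. TPD3 (0.0206) and LPD1 (0.0231) were closest to KAR4, RPN12 (0.0178) and SUI2 (0.0200) to IME4, and ATP1 (0.0168) and KGD1 (0.0205) to PHO92. Among the members themselves, SLZ1, KAR4, IME4 and PHO92 lay 0.116 to 0.164 from each other, and MUM2 lay 0.298 to 0.418 from each of them. By rank of distance among the 5182 genes, SLZ1, KAR4, IME4 and PHO92 stood only 139th to 576th from each other. MUM2 stood 1884th to 2712th from them, near the middle of all genes. With 4 libraries, these distances describe this table and say nothing of shared control.

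The deposited ndt80 average mixes each member with another gene. From the first mitochondrial row onward, that average combined 2 lists by row position, and 1 of the lists lacked the mitochondrial rows, so that the library B part of each member's row belonged to another gene. For PHO92 the row also held PIN3, which had 1000 TPM in library B, and the deposited ndt80 value was 693 TPM where the realigned mean was 396 TPM. For MUM2 the row also held MYO4 at 109 TPM, and the deposited value was 261 TPM where the realigned mean was 417 TPM. These were the members whose printed direction or size moved most. The rows of SLZ1, KAR4 and IME4 were shared with SMI1, KEX1 and INA1 in the same way. Taken as printed, the ratio of ndt80pch2 to ndt80 was 0.581 for PHO92 and 1.33 for MUM2, where the realigned libraries gave 1.02 and 0.831. For SLZ1, KAR4 and IME4 the printed ratios were 1.40, 1.35 and 1.22, where the realigned ones were 1.09, 1.11 and 1.05.

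**Figure D5:**
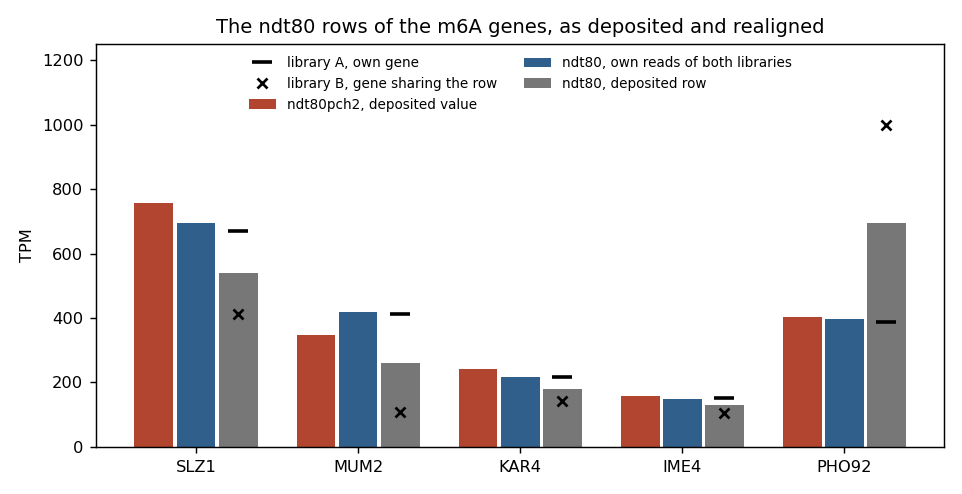
Level in TPM of each member: bars, from left to right, are the deposited ndt80pch2 value, the ndt80 mean of the gene's own reads in both libraries, and the ndt80 value as printed. On the printed bar, the dash is the gene in library A and the cross the gene sharing its row in library B; for PHO92 the cross at 1000 TPM lifts the printed bar to 693 TPM.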

How the data were processed

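Per the labels, mRNA was enriched by rRNA depletion and oligo-dT and sequenced in paired ends; the submitters' processing notes name DESeq2 2.11.40.6, the counter HTSeq (0.9.1) and the aligner HISAT2 (2.1.0), with no settings. The authors deposited 1 averaged, TPM-like value per gene and strain (decimal commas, no unit named in the file headers). Each value was solved as a mean of whole reads of 2 libraries over coding length (tolerance 0.55 of the last printed digit). This solved 99.9% of 5983 ndt80pch2 values. For ndt80, 9.16% were solved from row 94 (the first mitochondrial row) onward in the printed order, and 99.78% after realignment. The tests therefore rest on recovered reads, not on deposited per-library values. The realigned table held 6630 nuclear genes in all 4 libraries; 34 were left out. The main test was limma-trend (limma 3.58.1, R 4.3.3) on log2(TPM + 1), mean TPM of at least 1, strain as the only term, Benjamini-Hochberg adjustment over 5768 genes, called at 0.05. Intervals are 95%, and counting errors cover reads only. The fit was tested on simulated data with planted changes larger than those of the members. How it performs for changes of their size was not tested. Named genes were the 5 members, pathway and marker lists, nearest neighbours and the 2 most alike genes. The members and lists were chosen with earlier results of these data known. VIR1 was matched by gene ID through RefSeq; promoter sequence is from the RefSeq R64 genome.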

Additional observations from a re-analysis of the deposited data

How the results depend on the processing

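No paired analysis was possible because the recovered libraries carry no replicate numbers. There were 2 libraries a strain, with 1653209 to 2302378 nuclear reads each, and the data leave possible any difference within the members' intervals. The limma-trend test called 1 gene; it called 25 with no filter on low values, 5 at a mean TPM of at least 10, and 0 to 1 when a library was left out (0 without A and 0 without B). It called 2 after rescaling to nuclear genes, an alternative added after seeing the data, and limma-voom called 26. In all of these, 0 of the 5 m6A genes were called. Their relative log2 fold changes kept their direction under 10 alternatives, which include a pseudocount of 0.1 and median-of-ratios scaling: SLZ1 0.22 to 0.33, MUM2 -0.22 to -0.037, KAR4 0.16 to 0.41, IME4 0.14 to 0.28 and PHO92 0.029 to 0.30, with adjusted p from 0.201 to 1. With the ndt80 column as printed, they were 0.56, 0.48, 0.51, 0.35 and -0.71, from printed levels (an entry added after seeing the data) of 541 TPM for SLZ1, 261 for MUM2, 179 for KAR4, 129 for IME4 and 693 for PHO92: the directions of MUM2 and PHO92 were reversed, since library B there belongs to other genes. Of the other named gene fits, 218 of 240 kept their direction. The reversed ones came from leaving out a library, over which relative log2 fold changes ran from -0.0093 to 0.14 for VIR1, -0.31 to 0.98 for RME1, -0.043 to 0.25 for IME1, -0.061 to 0.20 for SAM1, -0.23 to 0.37 for POP2, -0.13 to 0.078 for NOT3, -0.22 to 0.047 for NOT5, -0.12 to 0.11 for CAF40, -0.17 to 0.025 for CAF130, -0.043 to 0.16 for PAF1, -0.13 to 0.10 for CDC73, -0.21 to 0.14 for LEO1 and -0.082 to 0.17 for PHO4. CAF40 was also at 0.0009 with a pseudocount of 0.1 and at 0.0004 with median-of-ratios scaling. The cause of these reversals was not tested.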

Other observations

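Within the ndt80pch2 strain, all 5 m6A genes were lower in library C than in library D, with log2 differences, C minus D, of -0.07 (SLZ1) to -0.25 (PHO92), and 4 of 5 were lower in library A than in library B, with IME4 the exception. Over all tested genes, 49.13% were lower in C than in D, with a median log2 difference of 0.0037, and 49.53% were lower in A than in B. The median absolute difference was 0.20 between C and D and 0.13 between A and B. The spread of PHO92 and KAR4 between the ndt80pch2 libraries was therefore larger than the median over all tested genes, and the spread of SLZ1, MUM2 and IME4 smaller. The median nuclear gene had only 40.4 TPM in ndt80pch2, and the members were not compared with genes of a similar level.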
